A study of Mus musculus with 28 samples.

Results

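Bone marrow-derived macrophages from mice with a macrophage knock-in of ASK1 (ASK1-MKI) were compared with macrophages of Lyz2-Cre mice that served as their own control set, with 3 cultures in each group. These 6 libraries belong to a series of 28 that also holds livers and a second macrophage experiment with separate controls. Bone marrow cells were grown for 7 days in medium with 10% serum and 30% L929-conditioned medium, which carries the macrophage growth factor CSF1, and the labels give no further stimulus and neither the age nor the sex of the donors. Lyz2-Cre drives recombination in the myeloid lineage, so granulocytes and monocytes carry it as well as macrophages, and the control mice carry it too by their label. The labels do not give the knock-in locus, its promoter or whether the ASK1 product is active, nor whether the 3 cultures of a group came from separate mice, so p-values measure the spread between these cultures. The genes described are the autosomal ones that passed a filter on low counts, 10988 of the 11380 genes tested and of 20750 autosomal genes among the 21959 listed. Total counts ran from 16051951 to 18728508 per library.

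ASK1, the product of Map3k5, is a kinase at the top of a stress-activated cascade. Reduced thioredoxin holds it inactive, and oxidants, tumour necrosis factor and stress of the endoplasmic reticulum release it. It then phosphorylates MKK4 and MKK7, which activate JNK, and MKK3 and MKK6, which activate p38, and these kinases act on AP-1 factors, cytokine mRNAs and regulators of cell death. In macrophages the cascade is known for its part in Toll-like receptor signalling and in steatohepatitis.

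The groups differed in sex-linked transcripts, which precedes every result given here. The Y-linked genes Ddx3y, Eif2s3y, Kdm5d and Uty had 0 counts in all 3 libraries labelled ASK1-MKI and 5196, 3618, 1873 and 2039 counts over the 3 controls. At a floor of 3 counts over the group, they were at least 1600-fold, 1120-fold, 578-fold and 630-fold lower. Of 6 sex-linked transcripts sought, Xist and Tsix were not among the genes listed, so the difference rests on the 4 Y-linked genes alone. The donors' sex and the genotype therefore cannot be told apart in this comparison, and for that reason the genes of the sex chromosomes were left out of all counts. On the X chromosome, 79 of 361 genes tested rose and 92 fell.

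The targeted gene was lower, not higher, in the cultures labelled as its knock-in. Levels are given in CPM, counts scaled to the size of the library but not to gene length. Map3k5 (chr10:19934472-20142753 of mm10, plus strand) stood at 26.74, 27.32 and 26.69 CPM in the libraries labelled ASK1-MKI and at 30.15, 29.97 and 30.32 CPM in controls. The groups did not overlap, and the fitted log2 change, knock-in minus control, was −0.16 ± 0.06 (standard error, edgeR adjusted p = 0.0266). A two-sided exact permutation test of log2 CPM gave p = 0.1, the smallest that 20 assignments allow. DESeq2 did not call it (adjusted p = 0.0827). The call was also lost without control replicate 1 (0.0552) or 3 (0.0639), without ASK1-MKI replicate 1 (0.0639) or 3 (0.0676), and when each library's mean was removed together with a trend on GC content and length (0.265). Whether reads from a knock-in copy would be assigned to Map3k5 was not tested. Directions below thus refer to libraries labelled ASK1-MKI and not to a measured rise of the kinase.

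The genes beside Map3k5 did not move together. Ifngr1, a subunit of the interferon-gamma receptor, and Pex7, a peroxisomal import receptor, had log2 changes of 0.03 ± 0.03 and 0.02 ± 0.08 and did not pass the test (edgeR adjusted p = 0.327 and 0.885). Bclaf1, a nuclear regulator of transcription and splicing, rose by 0.09 ± 0.03, a call lost without control replicate 3, and Mtfr2, a mitochondrial fission regulator, fell from 16.06 ± 0.99 to 7.71 ± 0.50 CPM (SD, n = 3). Within 5 Mb of Map3k5, 5 of 31 genes tested rose and 14 fell, and 6 changed at least 2-fold. In this window 61.3% of genes were called, against 49.1% over all autosomal genes tested. Over all genes, 24.4% fell and 6.02% changed at least 2-fold. The falls in the window included Arg1 and Myb, with log2 changes of −3.66 and −3.27, and the rises Ccn2, with 1.79. Across the chromosomes, the share of genes called ranged from 43.4% on chromosome 13 to 53.8% on chromosome 10.

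About as many genes rose as fell, but the large changes were mostly decreases. A gene was called changed at an edgeR adjusted p under 0.05, and "rose" and "fell" are used only of such genes. Of the 10988 genes, 5396 were called, which is 49.1%; 2712 rose (24.7%) and 2684 fell (24.4%). At least 2-fold changes were called in 662 genes (6.02%), of which 126 were higher (1.15%) and 536 lower (4.88%). In the band from 4-fold to below 8-fold, 22 genes rose and 109 fell, and from 8-fold upwards 5 rose and 86 fell. The median log2 change over all genes was 0.00 and the median size of a change was 0.16. Replicates were close to each other, with a common biological coefficient of variation of 0.0214, and the first principal component held 82.67% of the variance and separated the groups. With this spread, small differences pass the test: 1449 of the rises and 1130 of the falls were under 1.2-fold. In 5994 genes (54.6%) all values of one group lay above all of the other, and this share is the background of each statement on overlap. The rule that named most genes below required no overlap and took the smallest p or largest change. For genes named by it, these traits are therefore no added support. Where the mean of each library was removed along with a trend on GC content and length, the split of calls became 4212 higher and 1852 lower. The same trend removed without shifting library means gave 2780 higher and 2631 lower.

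**Figure D1:**
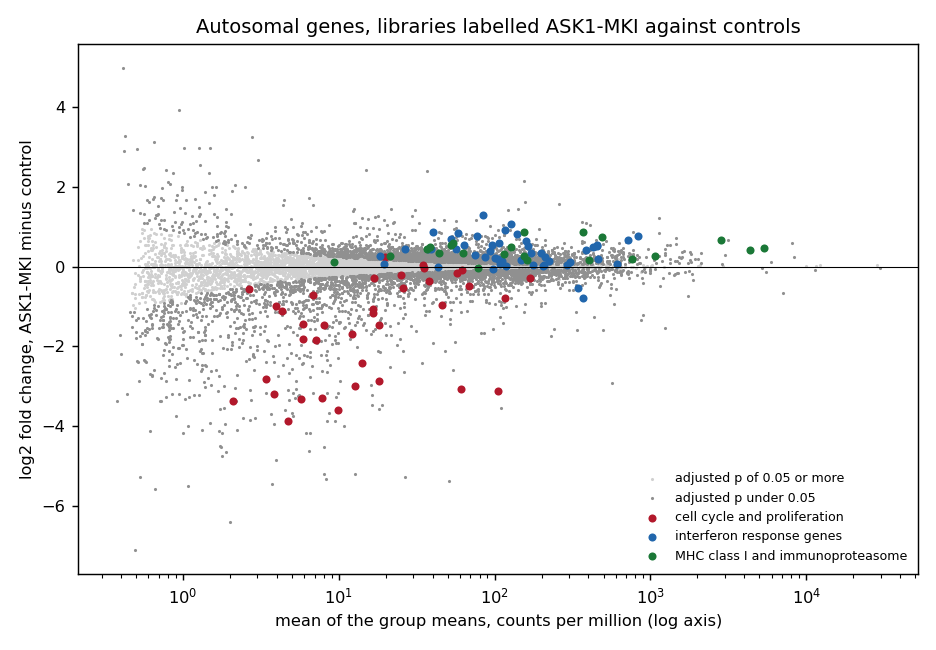
Log2 fold change (libraries labelled ASK1-MKI minus controls) against the mean of both group means in CPM (log axis) for each autosomal gene tested, with called genes in dark grey. Coloured points are members of 3 lists: cell cycle genes reach down to −3.86, while most interferon response and MHC class I genes lie above 0.

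Gene lists are described by their counts beside these shares of all genes, with no test of a list. Among the functional lists, the largest shares of falling members were found among cell cycle genes (33 of 37 tested), glycolysis genes (19 of 24), immediate early genes (15 of 20), cytosolic ribosomal proteins (28 of 41) and chemokine receptors (8 of 12). The largest shares of rising members were found among MHC class I and immunoproteasome genes (19 of 22), interferon response genes (38 of 49), Fc receptors and their adaptors (16 of 21), complement genes (11 of 17) and lysosomal genes (21 of 38). In other lists, such as regulators of apoptosis with 12 up and 10 down of 26, the members were divided.

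**Figure D2:**
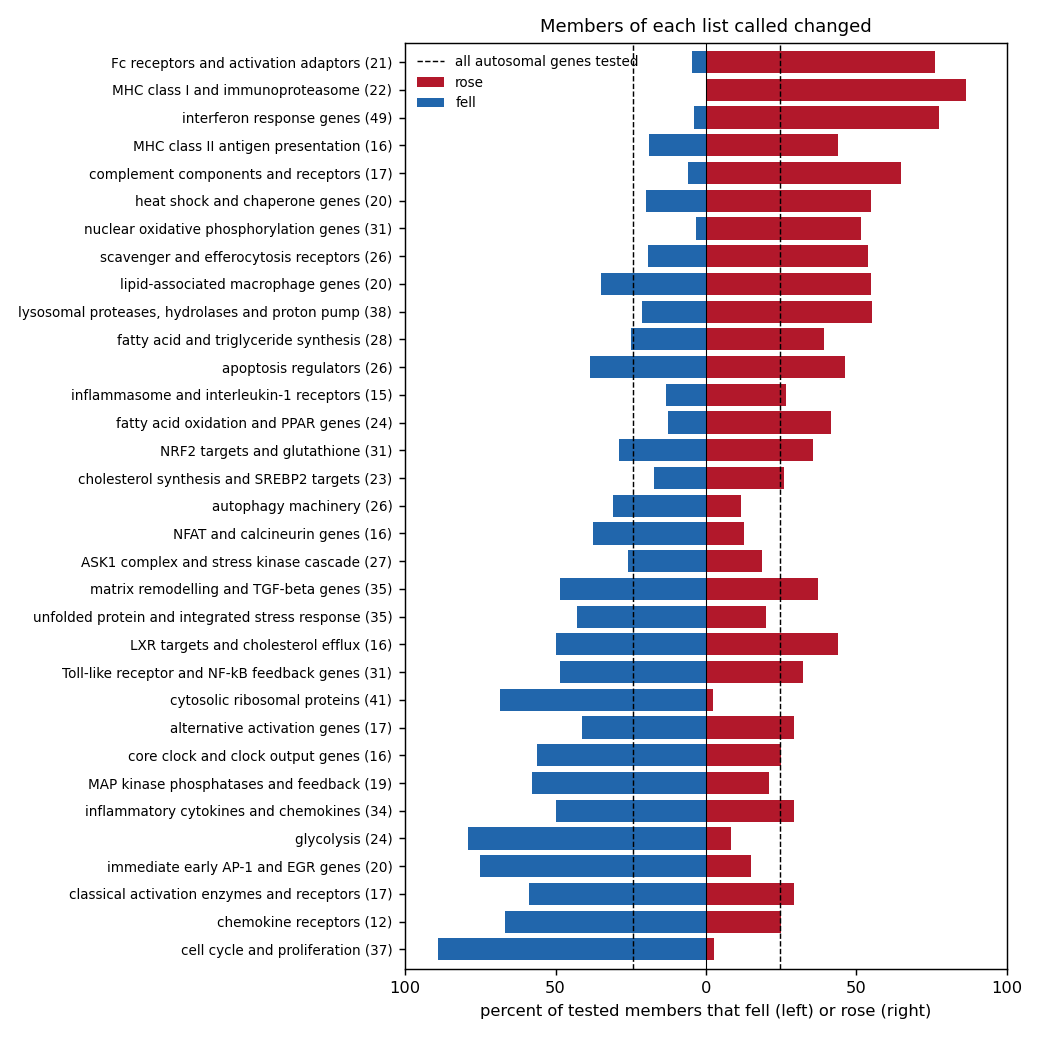
Percent of tested members that fell (left, blue) or rose (right, red) in each list, ordered by the median log2 change, with the number tested in brackets. Dashed lines mark the shares over all autosomal genes tested, 24.4% lower and 24.7% higher; cell cycle genes reach 89.2% lower and MHC class I genes 86.4% higher.

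Most cell cycle genes, 33 of 37 tested, fell in the libraries labelled ASK1-MKI. Mki67, the proliferation marker Ki-67, stood at 22.66, 21.42 and 21.81 CPM there and at 185.5, 192.9 and 189.8 CPM in controls. No knock-in value came near a control value, and the change was 8.63-fold (log2 −3.11 ± 0.04, edgeR adjusted p = 4.07e-101). Top2a, the topoisomerase of replicating cells, stood at 11.8, 13.66 and 13.53 against 110.0, 111.5 and 105.1 CPM and was 8.35-fold lower. Rrm2, a subunit of the enzyme that makes deoxynucleotides, fell from 31.66 ± 0.59 to 4.35 ± 0.56 CPM, and Ccnb1, the mitotic cyclin B1, from 22.66 ± 1.46 to 2.86 ± 0.25 CPM (SD, n = 3).

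The decrease reached from S phase to mitosis but was uneven. Of the 33 members that fell, 21 did so at least 2-fold, and the median over the 37 tested log2 change was −1.17. The mitotic regulators Ccna2, Birc5, Foxm1 and Plk1 had log2 changes of −3.59, −3.31, −3.29 and −3.18. Pcna, the replication clamp, fell by 0.28 and the replicative helicase subunit Mcm3 by 0.35 on the log2 scale. The inhibitors Cdkn1a (p21) and Cdkn1b (p27) fell as well, by 0.80 and 0.47. Ccnd1, cyclin D1, was the member that rose, by 0.23 ± 0.08. E2f1, Cdk2 and Mcm6 did not pass the test, with log2 changes of 0.04, −0.04 and −0.10. In bulk RNA, fewer cycling cells and less RNA per cycling cell cannot be told apart.

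Promoters of the falling cell cycle genes were searched for the letters TTTGAA, the cell cycle homology region that the MuvB complex binds, and TTTCCCGC, an E2F site. Windows ran from 250 bases before to 50 after the start (RefSeq, build GRCm38.p6), and both strands were searched. Of 27 falling members with a promoter in the RefSeq table, 9 held TTTGAA, against 20.2% of 27025 genes, and 4 held TTTCCCGC, against 1.2%. Of the 3 other members with a promoter, 0 held TTTGAA and 1 held TTTCCCGC. Matches are a description of letters and not of bound sites. Mki67 and Top2a, the members with the smallest p, each held 2 matches to TTTGAA or its reverse complement, and Mcm7 held the E2F letters on the opposite strand. These promoters were picked from the list after the matches were known; that of Ccnb1 held neither motif. Their windows are chr7:135716330-135716629, chr11:99024140-99024439 and chr5:138171834-138172133, all on the minus strand, shown 5′ to 3′ with the matches in capitals.
Mki67: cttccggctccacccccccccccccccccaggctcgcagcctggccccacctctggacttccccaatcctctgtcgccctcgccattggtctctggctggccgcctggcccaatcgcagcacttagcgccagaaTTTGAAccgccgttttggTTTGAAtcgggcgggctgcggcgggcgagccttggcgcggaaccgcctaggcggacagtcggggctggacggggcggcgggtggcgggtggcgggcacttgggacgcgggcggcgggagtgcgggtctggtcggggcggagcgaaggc
Top2a: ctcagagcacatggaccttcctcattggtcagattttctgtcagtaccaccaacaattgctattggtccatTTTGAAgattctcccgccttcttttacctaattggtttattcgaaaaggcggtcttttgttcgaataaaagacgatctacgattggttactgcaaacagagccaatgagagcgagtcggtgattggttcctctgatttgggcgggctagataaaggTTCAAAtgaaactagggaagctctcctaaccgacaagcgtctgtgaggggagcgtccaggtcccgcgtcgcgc
Mcm7: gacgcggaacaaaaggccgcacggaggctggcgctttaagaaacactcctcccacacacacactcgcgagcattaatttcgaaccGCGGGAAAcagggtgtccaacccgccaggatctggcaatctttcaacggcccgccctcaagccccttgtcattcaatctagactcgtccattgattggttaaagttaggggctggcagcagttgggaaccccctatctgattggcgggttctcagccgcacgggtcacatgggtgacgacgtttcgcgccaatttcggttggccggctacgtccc

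**Figure D3:**
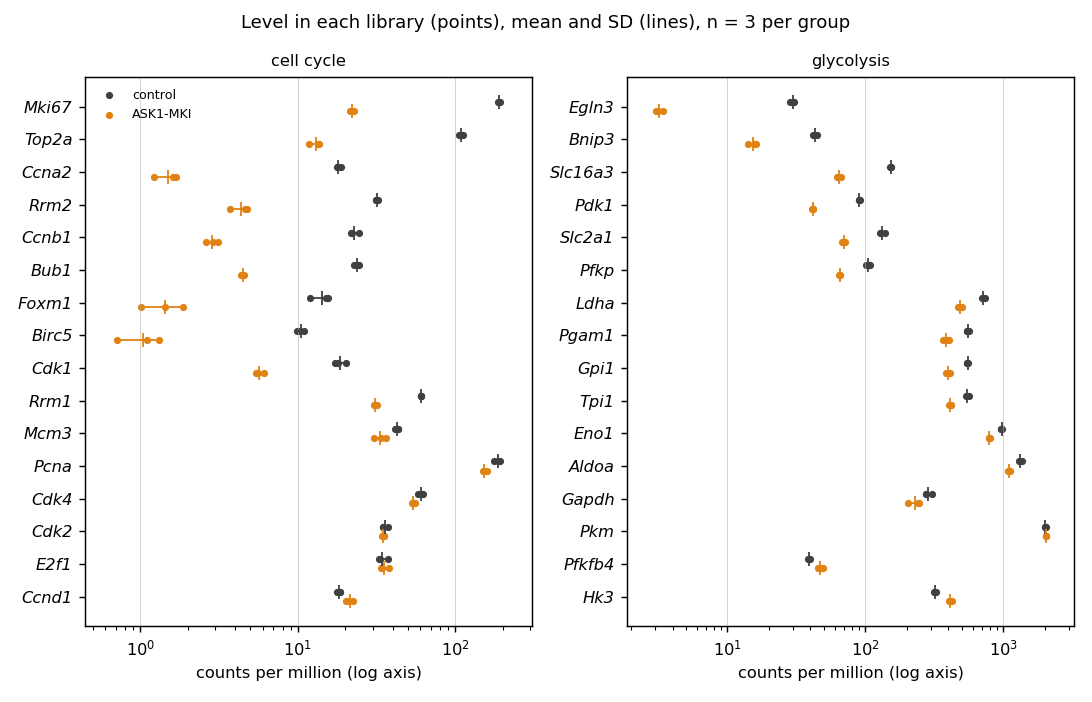
CPM in each library (points, log axis) for cell cycle and glycolysis genes, with the mean and SD of the 3 controls (grey) and the 3 libraries labelled ASK1-MKI (orange). Mki67 and Egln3 are separated by a wide gap, whereas Cdk2, E2f1 and Pkm lie on top of each other.

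Markers of immature myeloid cells and granulocytes were lower beside the cell cycle genes. Mpo, the myeloperoxidase of promyelocyte granules, stood at 0.38, 0.12 and 0 CPM in the libraries labelled ASK1-MKI and at 7.31, 6.92 and 7.49 CPM in controls. Elane and Ctsg, granule proteases, fell from 3.43 ± 0.26 and 3.66 ± 0.24 CPM to 0.12 ± 0.13 and 0.14 ± 0.12 CPM (SD, n = 3). Of 13 monocyte and precursor markers tested, 10 fell, 8 of them at least 2-fold, and 2 rose. The risers were Ly6c2, a monocyte surface antigen, at 152.9 against 73.9 CPM, and Treml4 at 42.0 against 17.3 CPM. The list summed to 401.8 to 415.1 CPM in the libraries labelled ASK1-MKI and to 522.1 to 561.5 CPM in controls. Of 6 neutrophil markers tested, 5 fell, and the list of 12 summed to 544.6 to 550.7 against 1792 to 1874 CPM. Mmp8 (131.7 against 999.3 CPM) and Lcn2 (253.8 against 608.5 CPM), its most abundant falling members, carried most of this difference. Lcn2 also stands in the list of classical activation enzymes and receptors. Csf3r, the G-CSF receptor, did not pass the test, and Ly6g had 1 count in the sum of the 6 libraries. The part of these cells in the other results was not tested.

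The cultures expressed macrophage genes in both groups. The pan-macrophage list summed to 39720 to 41660 CPM in the libraries labelled ASK1-MKI and to 37500 to 39760 in controls, which overlap. Lyz2, lysozyme, made up most of it and did not pass the test (log2 change 0.05 ± 0.05, edgeR adjusted p = 0.468). Adgre1, which encodes F4/80, rose from 2692 to 3309 CPM, and Csf1r, the CSF1 receptor, fell from 1521 to 1338 CPM. Of the other lists, dendritic cell markers summed to 589.3 to 607.8 against 383.6 to 390.9 CPM, osteoclast markers to 475.1 to 484.3 against 314.5 to 324.9, and Kupffer cell markers to 362 to 386.5 against 931.6 to 960.1. Single genes carried most of the last pair of differences: Atp6v0d2 stood at 238.05 against 76.97 CPM in the osteoclast list, in which Mmp9 fell, and Marco at 247.0 against 741.4 CPM in the Kupffer cell list. In the dendritic cell list, 3 of 6 members tested rose, among them Itgax and the interferon response gene Bst2, and 1, Ccr7, fell. Flt3, Zbtb46 and Dpp4, below the filter, had fewer counts in the libraries labelled ASK1-MKI. B cell, T cell and mast cell lists stayed below 20 CPM in every library, and Cd3d, Cd3e, Gzma, Mcpt4, Cldn5, Adipoq and Clec4f were at 0 counts in all.

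**Figure D4:**
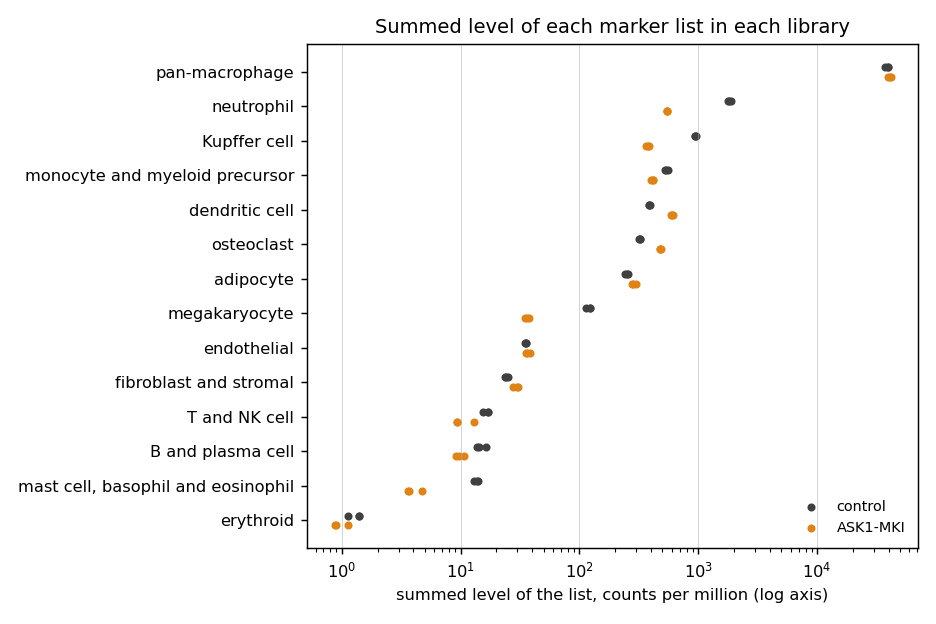
Summed CPM (log axis) of each marker list in each control library (grey) and each library labelled ASK1-MKI (orange). The neutrophil list lies at 544.6 to 550.7 CPM against 1792 to 1874 in controls, while the pan-macrophage list overlaps between groups.

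Of 34 cytokine and chemokine genes tested, 17 fell, 10 of them at least 2-fold, and 10 rose. Cxcl2, a ligand of CXCR2, stood at 2.01, 2.55 and 2.68 CPM in the libraries labelled ASK1-MKI and at 99.3, 94.4 and 106.4 CPM in controls. The groups were far apart, with a 41.2-fold lower level (log2 −5.37 ± 0.08, edgeR adjusted p = 1.43e-94). Cxcl3 stood at 1.76, 1.51 and 0.77 against 53.2, 47.1 and 54.5 CPM, and Cxcl1 was 15.5-fold lower. In the opposite direction, Ccl5 (RANTES) stood at 1604, 1618 and 1495 CPM against 660, 669.5 and 715.4 CPM. It was 2.31-fold higher with no overlap, and Cxcl9, a ligand of CXCR3, rose from 4.68 ± 0.89 to 25.1 ± 1.36 CPM (SD, n = 3).

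Among the cytokines, Il6, the pyrogenic cytokine interleukin-6, stood at 0.57, 0.17 and 0.54 CPM against 15.1, 16.8 and 15.0 CPM. Il12a, the p35 subunit of interleukin-12, fell from 7.68 ± 0.60 to 0.26 ± 0.12 CPM. It is no member of the list but among the 12 genes that fell most by the rule that named genes. Il1b fell 2.65-fold, while Tnf, the tumour necrosis factor gene, fell by 0.26 ± 0.04 on the log2 scale, to 79.4 CPM. Cxcl10, an interferon-induced ligand of the same receptor as Cxcl9, fell 4.02-fold, and Pf4, platelet factor 4, which also stands in the megakaryocyte list, fell 6.06-fold. Ccl6, Ccl9 and Ccl2 rose 2.65-fold, 1.92-fold and 1.95-fold. Cxcl16, Tnfsf12, Il1rn and Il15 had log2 changes between −0.01 and 0.03 and did not pass the test.

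Receptors for chemokines fell in 8 of 12 cases and rose in 3. Ccrl2, a chemerin-binding receptor, fell from 71.1 ± 1.54 to 33.5 ± 2.29 CPM and Cxcr4, the CXCL12 receptor, from 211.5 ± 5.52 to 131.1 ± 3.25 CPM (SD, n = 3). Ccr2, by which monocytes leave the marrow, was 5.41-fold lower and Ccr7, which guides cells to lymph nodes, 17.2-fold lower at a level of 2.52 CPM in controls. C3ar1, the receptor of complement C3a, Ccr1 and Fpr2 rose.

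**Figure D5:**
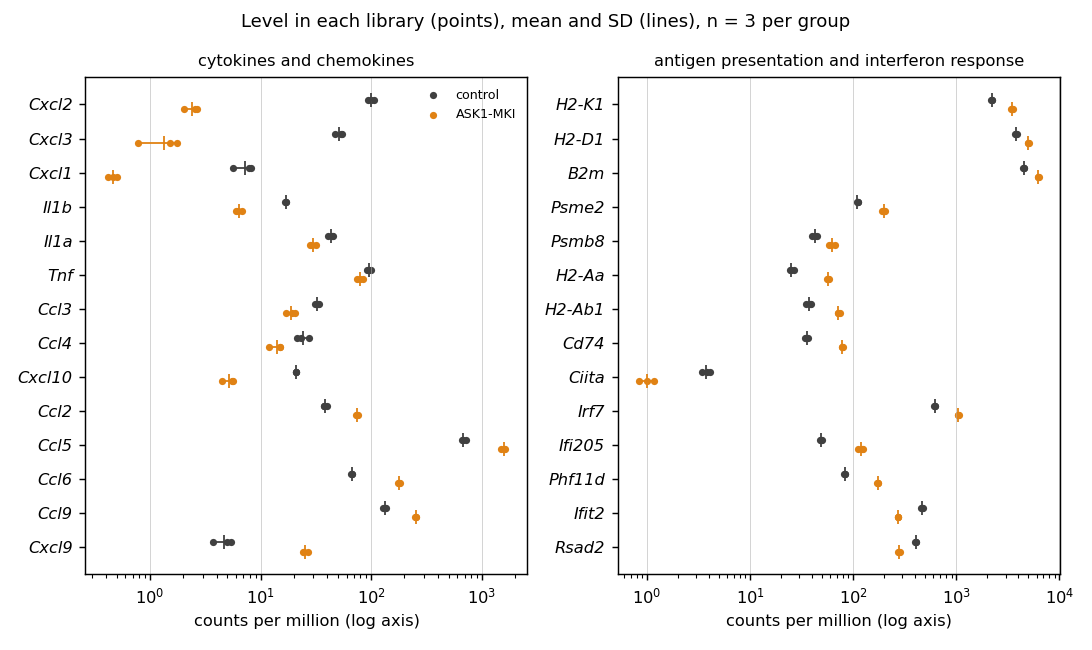
CPM in each library (points, log axis) with the mean and SD of 3 controls (grey) and 3 libraries labelled ASK1-MKI (orange). Cxcl2, Cxcl3 and Cxcl1 lie far lower in the knock-in libraries and Ccl5, Ccl6 and Cxcl9 higher, while antigen presentation genes lie higher except Ciita, the class II transactivator.

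Toll-like receptor and NF-kB genes were divided, with smaller changes. Cd14, the co-receptor for lipopolysaccharide, stood at 111.1, 101.8 and 107.1 CPM against 341.2, 348.5 and 372.0 CPM and fell by 1.73 ± 0.03 on the log2 scale. It was the member of 31 tested that changed at least 2-fold. In all, 15 fell, including the feedback regulators Nfkbiz (61.9 ± 0.69 to 33.6 ± 0.61 CPM), Irak3 and Tnfaip3, and 10 rose, including Tlr1 (52.4 ± 1.49 to 90.7 ± 2.46 CPM), Tlr3 and Tlr9. Tlr4 and Nfkbia did not pass the test. Among 15 inflammasome and interleukin-1 receptor genes, Casp1, Il18bp, Aim2 and Nlrp1b rose, Nlrp3 and Il1r1 fell and 9 did not pass. The shares were 26.7% higher, near the 24.7% of all genes, and 13.3% lower, against 24.4% of all genes. Casp1, the caspase that matures interleukin-1 beta, stood at 207.3 ± 2.70 against 140.8 ± 2.90 CPM (SD, n = 3).

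Of 27 genes of the ASK1 complex and cascade tested, 5 rose and 7 fell, close to the shares over all genes. With library means removed along with the GC content and length trend, 10 rose and 4 fell. Under that setting, 4212 of all 10988 genes rose and 1852 fell, so the background moved the same way. Txnip, which binds thioredoxin, stood at 109.6, 104.3 and 109.3 CPM against 151.4, 152.8 and 154.4 CPM and fell by 0.51 ± 0.03. Jun, an AP-1 subunit, fell from 97.5 ± 4.16 to 72.0 ± 3.78 CPM. Mapk14, which encodes p38 alpha, rose from 187.4 ± 3.54 to 221.5 ± 1.34 CPM, and the mitochondrial thioredoxin Txn2 rose by 0.32 ± 0.04. Mapk8 (JNK1), Map2k4 (MKK4), Map2k7 (MKK7), Map2k3 (MKK3), Traf2 and Daxx did not pass the test. RNA level gives no measure of the kinases' activity.

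Immediate early genes and MAP kinase phosphatases, which respond to such cascades, mostly fell. Of 20 immediate early genes tested, 15 fell and 3 rose, with a median log2 change of −0.55. Fosl2, an AP-1 subunit, stood at 51.8, 52.3 and 48.8 CPM against 94.4, 88.2 and 95.2 CPM. Ier3, a survival factor, fell from 50.1 ± 3.48 to 21.8 ± 1.25 CPM, and Klf4, a macrophage transcription factor, from 14.5 ± 0.47 to 5.49 ± 0.24 CPM. Egr2, Fos and Klf6 went the other way, and Egr2 rose from 11.2 ± 0.53 to 21.8 ± 1.38 CPM (SD, n = 3). Of 12 falling members with a listed promoter, 0 held the AP-1 letters TGANTCA, against 9.0% of all genes.

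Of 19 phosphatases and feedback inhibitors tested, 11 fell and 4 rose. Dusp1, which dephosphorylates p38 and JNK, stood at 16.9, 15.4 and 16.3 CPM against 31.9, 35.0 and 32.4 CPM, and fell by 1.03 ± 0.07. Dusp16, which acts on JNK, fell from 30.1 ± 0.74 to 18.2 ± 0.71 CPM. Dusp6, which acts on ERK, rose from 63.8 ± 3.60 to 108.7 ± 4.02 CPM, and Spred2, an inhibitor of the pathway to ERK, from 36.5 ± 0.54 to 55.4 ± 1.25 CPM (SD, n = 3).

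Regulators of apoptosis moved in both directions, 12 up and 10 down of 26 tested. Among members that protect cells, Mcl1 fell from 1348 ± 5.92 to 961.1 ± 11.5 CPM and Birc3 from 162.1 ± 7.16 to 93.7 ± 2.44 CPM, whereas Bcl2a1d rose from 29.4 ± 1.36 to 65.3 ± 2.11 CPM and Bcl2l1 and Bcl2 rose by 0.56 and 0.57 on the log2 scale. Among members that promote death, Fas, Bbc3, Pmaip1 and Bcl2l11 fell by 1.00, 0.89, 0.71 and 0.57, and Bad and Bak1 rose by 0.75 and 0.30. Bcl2a1d has near-identical copies, so its counts may hold reads of other members of that family.

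Several enzymes and secreted products of the classically activated macrophage were lower. Acod1, which makes itaconate, stood at 537.2, 539.9 and 543.6 CPM in the libraries labelled ASK1-MKI and at 1257, 1232 and 1298 CPM in controls. Slc7a11, the cystine importer, stood at 493.3, 483.8 and 493.3 against 1223, 1239 and 1279 CPM. Both differed by far more than the spread within a group, with log2 changes of −1.22 ± 0.02 and −1.35 ± 0.02 (edgeR adjusted p = 3.9e-91 and 1.21e-95). Marco, a scavenger receptor, and Lcn2, which binds bacterial siderophores, fell from 741.4 ± 13.2 and 608.5 ± 17.9 CPM to 247.0 ± 9.26 and 253.8 ± 4.46 CPM (SD, n = 3). Of 17 members tested, 10 fell, 8 of them at least 2-fold. Ptgs2 (cyclooxygenase-2) and Nos2 (inducible nitric oxide synthase) were 11.9-fold and 3.88-fold lower. Members that rose included the phagocyte oxidase subunits Ncf1 and Cyba and the Fc receptors Fcgr1 and Fcgr4.

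The alternative activation list did not move the opposite way. Of 17 members tested, 7 fell and 5 rose. Arg1, arginase, stood at 1.44, 1.04 and 1.31 CPM against 16.4, 17.1 and 14.7 CPM, a 12.7-fold lower level. Vegfa, the angiogenic factor, fell from 63.7 ± 1.69 to 17.0 ± 0.44 CPM and Tgm2 from 42.0 ± 1.57 to 29.8 ± 0.55 CPM (SD, n = 3). Pparg rose 1.58-fold, while Chil3, Clec10a, Il4ra, Irf4 and Ear2 did not pass the test, and Retnla was at 0 counts in all 6 libraries.

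Of 49 interferon response genes tested, 38 rose and 2 fell, with a median log2 change of 0.34 and 2 members at least 2-fold higher. Irf7, the amplifying transcription factor of type I interferon, stood at 1037, 1064 and 1027 CPM in the libraries labelled ASK1-MKI and at 625.2, 602.1 and 616.4 CPM in controls. It was 1.70-fold higher without overlap (log2 0.76 ± 0.02, edgeR adjusted p = 1.8e-67). Phf11d rose from 83.0 ± 1.06 to 172.9 ± 2.62 CPM, and Ifitm3, which blocks virus entry, from 557.9 ± 11.1 to 879.0 ± 7.35 CPM (SD, n = 3). Ifi205, of the family of DNA sensors, rose 2.44-fold. The signalling factors Stat2 and Irf9 rose by 0.13 and 0.39 on the log2 scale.

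The members that fell encode antiviral effectors. Ifit2 stood at 271.9, 270.4 and 274.3 CPM against 469.0, 472.2 and 458.5 CPM, and Rsad2 (viperin) at 281.1, 272.8 and 284.9 against 409.9, 410.1 and 397.4 CPM. Neither overlapped, with log2 changes of −0.78 ± 0.02 and −0.54 ± 0.02. Ifit1, Ifit3, Cmpk2, Mx1 and Irf1 did not pass the test, with log2 changes between −0.06 and 0.06. Oas, Gbp, Slfn and Ifi200-type genes have close paralogs, and how reads were divided among them is not given in the sources used here.

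Promoters of this list often held the letters AAANNGAAA, the core of the interferon-stimulated response element that STAT and IRF factors bind. Of 31 rising members with a listed promoter, 27 held them on either strand, against 12.1% of all genes, and 6 of the 9 other members with a promoter did too. In Ifi205, which had the largest rise of the list, and in Ifitm3 there were 2 matches each, and in Irf7 there was none in the window. These promoters, too, were picked with the matches known. The windows chr1:174031706-174032005 and chr7:141010695-141010994, both on the minus strand, are shown 5′ to 3′ with the matches in capitals.
Ifi205: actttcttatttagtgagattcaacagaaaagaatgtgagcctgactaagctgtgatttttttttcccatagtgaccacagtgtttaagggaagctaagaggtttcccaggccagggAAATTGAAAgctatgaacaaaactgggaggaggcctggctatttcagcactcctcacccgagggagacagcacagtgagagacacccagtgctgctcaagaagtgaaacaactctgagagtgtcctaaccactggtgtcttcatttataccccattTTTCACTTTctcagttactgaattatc
Ifitm3: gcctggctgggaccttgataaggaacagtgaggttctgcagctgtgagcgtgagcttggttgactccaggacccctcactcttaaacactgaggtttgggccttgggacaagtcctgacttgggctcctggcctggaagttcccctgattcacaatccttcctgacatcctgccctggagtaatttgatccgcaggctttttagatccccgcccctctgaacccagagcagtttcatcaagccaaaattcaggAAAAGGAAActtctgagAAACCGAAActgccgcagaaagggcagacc

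Of 22 genes of MHC class I presentation tested, 19 rose and 0 fell, with a median log2 change of 0.37. H2-K1, a classical class I heavy chain, stood at 3410, 3521 and 3460 CPM against 2210, 2173 and 2207 CPM, and B2m, the shared light chain, at 6146, 6305 and 6189 against 4484, 4481 and 4497 CPM. The knock-in values lay above all controls, by 1.58-fold and 1.38-fold. H2-T23 rose from 364.8 ± 4.79 to 612.6 ± 15.4 CPM and Psme2, a proteasome activator subunit, from 109.9 ± 0.98 to 198.7 ± 7.17 CPM (SD, n = 3). The immunoproteasome subunits Psmb8, Psmb9 and Psmb10 and the peptide transporters Tap1 and Tap2 rose by 0.27 to 0.58 on the log2 scale. Nlrc5, the class I transactivator, H2-Q6 and H2-Q7 did not pass the test. Class I heavy chains are near-identical over long stretches, so their single values are uncertain.

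Of 16 MHC class II genes tested, 7 rose, 3 fell and 6 did not pass the test. H2-Aa, the class II alpha chain, stood at 58.9, 56.8 and 55.1 CPM against 24.4, 24.7 and 26.5 CPM. H2-Ab1 rose from 37.4 ± 2.30 to 71.6 ± 1.85 CPM and Cd74, the invariant chain, from 35.3 ± 1.31 to 78.4 ± 1.11 CPM (SD, n = 3). Ctss, the cathepsin that cleaves the invariant chain, rose from 6454 ± 82.3 to 9686 ± 226 CPM, the largest rise in CPM among the autosomal genes. Ciita stood at 1.00, 1.16 and 0.83 CPM against 4.11, 3.80 and 3.40 CPM, a 3.74-fold lower level. H2-Ob, a chain of an inhibitor of peptide loading, was 2.20-fold lower, and Ifi30, a lysosomal thiol reductase, fell by 0.20 ± 0.04 on the log2 scale. Itgax, which encodes the dendritic cell and macrophage integrin CD11c, stood at 62.9, 61.9 and 60.1 against 11.2, 11.9 and 12.1 CPM beside them. Of 6 dendritic cell markers tested, 3 rose, among them Itgax and Bst2, which also stands in the interferon response list. Clec9a and Ccr9 did not pass the test at below 1 CPM, Ccr7 fell and Cd209a was at 0 counts. Below the filter, Flt3 had 0, 2 and 0 counts in the libraries labelled ASK1-MKI and 10, 6 and 8 in controls. Zbtb46 had 3, 1 and 5 against 11, 9 and 9, and Dpp4 4, 3 and 1 against 15, 9 and 8.

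Receptors for antibodies and dead cells were mostly higher. Of 21 Fc receptors and activation adaptors tested, 16 rose and 1, Sirpa, fell. Fcgr1, the high-affinity IgG receptor, stood at 593.5, 597.8 and 598.4 CPM against 394.9, 406.9 and 399.5 CPM. Cd300lf and Cd300a, which bind membrane lipids, rose from 62.0 ± 2.05 and 84.7 ± 1.74 CPM to 124.9 ± 3.90 and 145.4 ± 0.36 CPM, and Fcer1g, the signalling gamma chain, from 492.9 ± 15.6 to 672.5 ± 17.5 CPM (SD, n = 3).

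Of 26 scavenger and efferocytosis receptors tested, 14 rose and 5 fell. Mfge8, the bridge between dying cells and phagocytes, stood at 379.3, 408.0 and 382.0 CPM against 127.1, 127.4 and 136.9 CPM, 2.99-fold higher. Clec7a, the beta-glucan receptor dectin-1, rose from 231.7 ± 3.86 to 500.7 ± 9.53 CPM. Its relative Clec4e (Mincle), which binds mycobacterial glycolipid, stood at 630.1, 646.6 and 638.6 CPM against 1807, 1840 and 1898 CPM. It fell by 1.53 ± 0.02 on the log2 scale, while Clec4d and Clec4n, of the same gene cluster, did not pass the test. Mertk and Axl, receptors for dying cells, rose by 0.50 and 0.67. Complement genes rose in 11 of 17 cases and fell in 1, Cd55. C1qa and C1qc rose from 440.2 ± 2.99 and 502.8 ± 7.30 CPM to 522.6 ± 11.6 and 616.4 ± 11.9 CPM (SD, n = 3).

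Of 24 glycolysis genes tested, 19 fell and 2 rose, with a median log2 change of −0.42. Slc16a3, which exports lactate, stood at 62.5, 63.3 and 66.9 CPM against 151.0, 154.2 and 154.0 CPM. Egln3, an oxygen-sensing hydroxylase that is itself induced in low oxygen, stood at 3.01, 3.13 and 3.40 against 30.5, 28.5 and 30.0 CPM. These values did not overlap, with 9.32-fold less Egln3 and a log2 change of −1.25 ± 0.04 for Slc16a3. Pdk1, which keeps pyruvate out of mitochondria, fell from 90.3 ± 0.82 to 41.8 ± 0.35 CPM and the glucose transporter Slc2a1 from 132.2 ± 6.33 to 69.7 ± 1.65 CPM (SD, n = 3). Ldha, Aldoa and Eno1 fell by 0.55, 0.28 and 0.30. Hk3 and Pfkfb4 rose, and Pkm, Pfkm and Gapdh did not pass the test; Gapdh has many pseudogenes. Hif1a, which encodes the low-oxygen transcription factor, fell by 0.63 ± 0.03.

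Of 31 nuclear oxidative phosphorylation genes, 16 rose, 1, Uqcrfs1, fell and 14 did not pass the test, with a median log2 change of 0.12. Ndufs3 and Ndufa4, of complex I, rose by 0.38 ± 0.05 and 0.35 ± 0.04, and Atp5b, of the ATP synthase, from 452.9 ± 9.58 to 512.1 ± 14.7 CPM (SD, n = 3). None changed 2-fold.

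Of 35 genes of the unfolded protein and integrated stress response tested, 15 fell, 7 of them at least 2-fold, and 7 rose. Trib3, a pseudokinase induced by ATF4 and CHOP, stood at 4.83, 4.63 and 3.58 CPM against 14.1, 13.4 and 16.0 CPM. Ppp1r15a, which restores translation, fell from 53.3 ± 1.48 to 30.5 ± 0.91 CPM (SD, n = 3). The amino acid synthesis genes Phgdh, Psat1 and Asns were 4.05-fold, 2.22-fold and 2.09-fold lower, and Atf4 fell by 0.29 ± 0.03. The 7 that rose were Calr (971.6 ± 31.5 to 1170 ± 14.1 CPM), Hsp90b1, Pdia6, Dnajc3, Syvn1, Sdf2l1 and Manf, which fold or dispose of proteins in the endoplasmic reticulum. Hspa5 (BiP), Xbp1, Atf6 and Ddit3 (CHOP) did not pass the test.

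Promoters of the 15 falling members were searched for TGATGNAA, the composite site of CHOP or C/EBP with ATF4. It was found in 5 of 15, Herpud1, Trib3, Asns, Chac1 and Slc7a11, against 4.5% of all genes and 1 of 17 other members with a promoter. Slc7a11 held 2 matches, on opposite strands, and the promoters shown were picked with the matches known. The windows chr2:152344011-152344310, chr3:50443564-50443863 and chr6:7693160-7693459, all on the minus strand, are shown 5′ to 3′ with the matches in capitals.
Trib3: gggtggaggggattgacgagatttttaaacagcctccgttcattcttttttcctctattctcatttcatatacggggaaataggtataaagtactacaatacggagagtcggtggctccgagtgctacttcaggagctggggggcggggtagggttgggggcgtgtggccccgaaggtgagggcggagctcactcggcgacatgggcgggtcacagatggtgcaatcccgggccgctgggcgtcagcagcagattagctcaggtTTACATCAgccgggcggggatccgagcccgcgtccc
Slc7a11: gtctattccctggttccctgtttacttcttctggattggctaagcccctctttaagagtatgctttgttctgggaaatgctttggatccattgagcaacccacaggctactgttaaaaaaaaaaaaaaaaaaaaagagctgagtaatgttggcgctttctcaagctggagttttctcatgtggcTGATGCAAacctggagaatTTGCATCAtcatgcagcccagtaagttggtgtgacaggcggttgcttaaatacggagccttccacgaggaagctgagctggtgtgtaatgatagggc
Asns: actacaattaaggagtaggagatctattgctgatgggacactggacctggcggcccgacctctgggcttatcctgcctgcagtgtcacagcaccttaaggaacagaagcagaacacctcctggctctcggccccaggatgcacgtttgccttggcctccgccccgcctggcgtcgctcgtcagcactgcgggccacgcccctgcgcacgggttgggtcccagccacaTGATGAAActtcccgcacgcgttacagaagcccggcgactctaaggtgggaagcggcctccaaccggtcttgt

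Targets of the oxidant sensor NRF2 did not move as a group. Of 31 tested, 11 rose and 9 fell. Prdx6, a peroxiredoxin, stood at 173.8, 169.4 and 166.4 CPM against 513.9, 498.7 and 510.9 CPM, and Nqo1, a quinone reductase, at 7.97, 8.34 and 7.98 against 23.6, 25.7 and 25.1 CPM. They fell by 1.58 ± 0.03 and 1.61 ± 0.09 on the log2 scale without overlap. Blvrb, biliverdin reductase, rose from 227.4 ± 2.67 to 316.0 ± 9.92 CPM (SD, n = 3), and the pentose phosphate enzyme Pgd by 0.29. Srxn1, Gstm1, Cat, Prdx1 and Nfe2l2, which encodes NRF2, did not pass the test. The letters TGACNNNGC were found in 2 of 10 rising and 2 of 6 falling members with a listed promoter, against 14.0% of all genes.

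Of 20 chaperones, 11 rose and 4 fell. Hsp90ab1 and Hsp90aa1, the cytosolic HSP90 proteins, rose from 1398 ± 9.43 and 522.3 ± 4.70 CPM to 1657 ± 7.00 and 617.1 ± 0.54 CPM (SD, n = 3). The stress-inducible Hspa1a and Hspa1b, which are near-identical copies, fell by 1.46 and 1.73 on the log2 scale at below 4 CPM in every library. The heat shock element GAANNTTC was found in 4 of 8 rising members with a promoter and in 5 of 7 others, against 9.0% of all genes.

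Each list of lipid genes held members that rose and members that fell. Lpl, lipoprotein lipase, stood at 3858, 3820 and 3885 CPM in the libraries labelled ASK1-MKI and at 2471, 2417 and 2399 CPM in controls, 1.59-fold higher. Of the 20 lipid-associated macrophage genes, 11 rose and 7 fell. Apoe rose from 7691 ± 218 to 9014 ± 36.0 CPM, whereas Spp1, osteopontin, fell from 662.1 ± 9.04 to 452.4 ± 8.68 CPM and Ctsl, a cathepsin, from 2174 ± 28.9 to 1311 ± 17.9 CPM (SD, n = 3). Gpnmb, a membrane glycoprotein at 11010 CPM or more in every library, fell by 0.09 ± 0.02, a call lost with library means removed (edgeR adjusted p = 0.743).

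Of 16 genes of the oxysterol receptor LXR and of cholesterol efflux, 7 rose and 8 fell. Nr1h3, which encodes LXR alpha, rose from 42.0 ± 2.62 to 70.3 ± 1.89 CPM, and its target Mertk from 208.6 ± 5.98 to 295.1 ± 4.18 CPM. The targets Abca1, the cholesterol exporter, and Arl4c fell from 431.8 ± 6.23 and 113.1 ± 1.73 CPM to 324.0 ± 3.95 and 63.4 ± 3.66 CPM (SD, n = 3). Of 23 cholesterol synthesis genes, 6 rose (26.1%) and 4 fell (17.4%), against 24.7% and 24.4% of all genes, and 13 did not pass the test. Dhcr7 and Msmo1 were among those that rose, by 0.45 and 0.22. The sterol regulatory letters TCACNCCAC were found in 0 of 5 rising members with a promoter, against 1.4% of all genes.

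For fatty acids, 11 of 28 synthesis genes rose and 7 fell. Acsl1, which activates long-chain fatty acids, stood at 404.4, 390.3 and 407.7 CPM against 763.1, 755.0 and 780.5 CPM. Dgat2, which makes triglyceride, fell from 4.75 ± 0.31 to 0.98 ± 0.25 CPM (SD, n = 3). Fasn did not pass the test. Of 24 oxidation and PPAR genes, 10 rose and 3 fell. Echs1 and Acaa2, enzymes of the beta-oxidation cycle, rose by 0.36 ± 0.04 and 0.49 ± 0.07, and Ppard and Cd36, the fatty acid transporter, fell by 0.45 ± 0.06 and 0.20 ± 0.02. The call of Cd36 was lost with library means removed (edgeR adjusted p = 0.141).

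Lysosomal genes rose in 21 of 38 cases and fell in 8. Atp6v0d2, a proton pump subunit also known from osteoclasts, stood at 241.3, 235.2 and 237.7 CPM against 79.5, 76.2 and 75.2 CPM, 3.09-fold higher without overlap. Ctsc, the protease that activates granule enzymes, rose from 551.9 ± 4.87 to 1002 ± 9.52 CPM (SD, n = 3). Ctsb and Psap did not pass the test. The CLEAR letters TCACGTGA, the TFEB site, were found in 2 of 12 rising members with a promoter and in 3 of 14 others, against 1.1% of all genes. Of 26 autophagy genes, 8 fell (30.8%) and 3 rose (11.5%), against 24.4% and 24.7% of all genes, and 15 did not pass the test. The receptors Optn and Sqstm1 fell by 0.62 ± 0.07 and 0.17 ± 0.02.

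Ribosomal protein genes fell slightly in 28 of 41 cases and rose in 1, Rps2, with a median log2 change of −0.12. Rpsa stood at 528.4, 521.0 and 521.1 CPM against 626.0, 633.1 and 648.7 CPM. Rpl23, Rpl7a and Rps3a1 fell by 0.25, 0.25 and 0.20. Eef1a1, the translation elongation factor, fell from 5799 ± 123 to 5280 ± 88.7 CPM (SD, n = 3). These genes have many pseudogenes, among which reads can be divided.

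Several matrix metalloproteases fell and some matrix proteins rose. Mmp8, the neutrophil collagenase, stood at 130.1, 128.9 and 136.1 CPM against 990.6, 979.1 and 1028 CPM, 7.59-fold lower (log2 −2.92 ± 0.03, edgeR adjusted p = 1.13e-124). Mmp9, gelatinase B, stood at 0.88, 0.23 and 0.89 CPM against 25.3, 21.2 and 27.2 CPM. Mmp2 and Mmp13 were 5.88-fold and 3.26-fold lower, while Mmp12, the macrophage elastase, stood at 624.0 against 624.5 CPM and did not pass the test. Tgfbi, a matrix protein induced by TGF-beta, rose from 811.9 ± 11.7 to 1452 ± 14.2 CPM, and Adam8 from 1179 ± 10.5 to 1747 ± 37.0 CPM (SD, n = 3). Of 35 genes in all, 17 fell and 13 rose.

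Clock genes fell in 9 of 16 cases and rose in 4. Arntl (BMAL1) stood at 6.21, 7.70 and 6.55 CPM against 11.6, 12.8 and 11.5 CPM, and Rora and Nfil3 fell by 0.79 ± 0.06 and 0.96 ± 0.09. Tef, Dbp, Per2 and Cry2 rose, Tef by 0.39 ± 0.04. The time of day of the harvest is not given. Of 16 NFAT and calcineurin genes, 6 fell (37.5%) and 2 rose (12.5%), against 24.4% and 24.7% of all genes. Nfat5 fell from 142.6 ± 7.04 to 103.6 ± 3.98 CPM (SD, n = 3), and Nfatc3 did not pass the test at 87.9 against 82.9 CPM.

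The 12 genes that rose most were chosen among called genes without overlap, not predicted, at 1 CPM or more in the higher group. They included basement membrane and collagen genes. Col4a1 stood at 4.96, 4.98 and 5.07 CPM against 0.45, 0.46 and 0.64 CPM. Hspg2 (perlecan), Col6a3, Col3a1 and Serpinh1, the collagen chaperone, rose by 2.98, 2.96, 2.42 and 2.98 on the log2 scale. Serping1, the C1 inhibitor, rose from 0.11 ± 0.06 to 1.78 ± 0.17 CPM and Jchain, the joining chain of antibodies, from 0.81 ± 0.36 to 5.24 ± 0.49 CPM (SD, n = 3). The other 5 of 6 B and plasma cell markers tested fell, each at least 2-fold. The fibroblast and stromal list summed to 27.78 to 30.57 CPM in the libraries labelled ASK1-MKI and to 23.69 to 25.14 CPM in controls. Its defining members Col1a1 and Col1a2 rose, Dcn and Acta2 did not pass the test and Pdgfrb fell. The endothelial list summed to 35.22 to 38.42 CPM in the libraries labelled ASK1-MKI and to 34.64 to 35.44 CPM in controls. Of its 6 members tested, 3 rose, 2 of them at least 2-fold, and 2 fell, with log2 changes from −0.49 to 4.97. The part of fibroblast, stromal or endothelial cells in these rises was not tested. The remaining genes of the 12 that rose most were Scgb1a1, Mmp3, Cxcl9, Itgax and Pla1a.

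The 12 that fell most were chosen under the same conditions. Among them, Ms4a3, a gene of granulocyte and monocyte precursors, had 1 count over the 3 libraries labelled ASK1-MKI and 70 in controls. The ratio was 64.8 (95% counting interval 11.3 to 2600). Ankle1 had 1 against 56 counts, a ratio of 51.9 (8.94 to 2090). Sema3c, a guidance factor, stood at 0.50, 0.35 and 0.36 CPM against 17.0, 14.8 and 16.6 CPM. In absolute terms, the largest fall was that of Saa3, an acute phase protein, from 8650, 8426 and 9102 CPM to 5476, 5452 and 5495 CPM. Lgals3bp, a scavenger receptor domain protein, and H2-D1 were among the 8 with the largest rise, from 1098 ± 17.4 and 3778 ± 81.2 to 1804 ± 20.6 and 4996 ± 62.1 CPM (SD, n = 3).

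The NFATc3-MKI cultures, fitted on their own table with their own controls, are given beside these values. The difference between the experiments was not tested, and the tables differ in depth and spread. Every library of that experiment held Y-linked counts (Ddx3y 546 to 724), unlike the libraries labelled ASK1-MKI. The control sets also differed: Apoe stood at 11.2 CPM in NFATc3-MKI controls and 7691 in ASK1-MKI controls, and Txnip at 9466 and 152.9 CPM. The signs below are thus not a like-for-like comparison of genotypes. For NFATc3-MKI, 4274 of 12725 autosomal genes were called (33.6%), 16.7% higher and 16.9% lower. Cxcl2, Il6, Acod1 and Clec4e had log2 changes of 1.44, 3.59, 2.55 and 1.09 in NFATc3-MKI and of −5.37, −5.19, −1.22 and −1.53 in ASK1-MKI. Irf7, Phf11d and Ifitm3 had 0.72, 1.14 and 0.65 there and 0.76, 1.06 and 0.66 here. Mki67 had −0.25 there, without passing the test, and −3.11 here. In NFATc3-MKI, 8 of 37 cell cycle genes fell and 37 of 46 interferon response genes rose.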

How the data were processed

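Messenger RNA of 6 macrophage cultures was read from strand-specific libraries, per the labels' protocols, and aligned with HISAT2 to mm10, per the submitters' processing notes. For the counting program, its annotation and its strand setting, nothing is given in the sources used here, so overlapping and antisense genes may share reads. The authors deposited raw, unnormalised counts for 21959 Ensembl gene identifiers, of which 21902 were matched to a name in GENCODE's mm10 annotation and 6420 were 0 in every library. Genes were kept by edgeR's filterByExpr (edgeR 4.0.16 in R 4.3.3), scaled by TMM factors and tested by the robust quasi-likelihood F test, adjusted by Benjamini-Hochberg over all 11380 genes, on the whole table. The standard error is the log2 change divided by the square root of F, and CPM uses the scaled library sizes. The code was tested on simulated counts.

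Members and gene lists were chosen with earlier results of these data known. Named genes were Map3k5 and its neighbours, the 12 that rose and the 12 that fell most (at least 1 CPM in the higher group, no overlap, no predicted genes), the 8 with the largest CPM difference each way, and up to 4 called members of each list with the smallest p and no overlap. Other members were named after their values were seen. Some genes that the rule names are not reported here. For motifs, 11 pairs of a list and letters were searched; 1 of 4 rising MHC class II members with a promoter held TGACGTCA, against 2.0% of all genes. Alternatives were DESeq2 1.42.0 (size factors and Wald test), limma 3.58.1 voom, other filters and thresholds, a replicate block, autosomal genes only, GC content and length, and each library left out.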

Additional observations from a re-analysis of the deposited data

How the results depend on the processing

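Counts of genes changed, higher and lower were 1679, 621 and 1058 against a fold of 1.2 (glmTreat) and 662, 126 and 536 with an added 2-fold limit. Genes at least 2-fold higher numbered 207 with no filter and 78 with a mean of at least 1 CPM. Without 1 library each, 4889 to 5070 genes changed, 2412 to 2537 higher and 2447 to 2533 lower, and 135 to 143 and 542 to 585 were at least 2-fold higher and lower.

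The correction for GC content and length, as first run, also removed each library's mean. It gave 4212 genes higher and 1852 lower (69.5% and 30.5% of calls; median of all genes 0.0828), or 4148 and 1817 with the replicate block, and the Map3k5 call was lost (log2 change −0.0845, adjusted p = 0.265; −0.0847 and 0.255 with the block). The calls of Gpnmb (0.743), Cd36 (0.141) and Dyrk1a (0.283) were also lost, with and without the block, and Ifngr1 was called (0.0955, adjusted p = 0.00123). The version centred within each library was added after this result was seen: it gave 2780 higher and 2631 lower, or 2741 and 2574 with the block, and kept the Map3k5 call (0.0242). Under the first version, the medians of 7 lists changed sign from negative to positive: the ASK1 cascade (to 0.067), LXR (0.037), cholesterol synthesis (0.058), NRF2 (0.051), autophagy (0.044), matrix (0.02) and NFAT genes (0.057).

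For Map3k5, the change was −0.1643 with DESeq2's Wald test (adjusted p = 0.0827), −0.1632 with an adjusted p under 0.01 or a 2-fold limit, and −0.1632 with glmTreat (adjusted p = 1.0), all without a call; without 1 library each, −0.1744 to −0.1556. Pex7, never called, ranged from −0.0283 (without ASK1-MKI replicate 3) to 0.0444 (without ASK1-MKI replicate 1) and was −0.009 without control replicate 3. Of 153 other called named genes, 1, Bclaf1, lost its call without 1 library (control replicate 3). DESeq2's Wald test called 4340 genes and voom 5381.

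Same-numbered libraries did not deviate together (correlations −0.006, −0.013 and 0.003). Libraries of a group differed by more than sampling noise alone (chi-square per gene 1.589 to 1.989). Part of their difference was still sampling noise, which paired libraries would not share. The correlations therefore cannot exclude pairing. With the replicate block, 5316 genes were called.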
